A study of Mus musculus with 4 samples.

Results

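The cells described here are the 1342 CD8+ T cells that the authors named Tn, for naive T cells, among 11754 sorted BM CD8+ T cells in 8 clusters. They were taken by that deposited name, matched by barcode to the table of unique molecular identifiers (UMIs), each of which stands for 1 captured RNA molecule. The cells came from mice on a C57BL/6 background, either WT or transgenic for CRBN, the protein that lenalidomide binds, after SCT in a model of myeloma. Each graft held BM cells and T cells, and the labels call the donors genetically matched. The 4 groups were given isotype control with vehicle, TIGIT inhibition with vehicle, isotype control with lenalidomide, or TIGIT inhibition with lenalidomide. Antibody was started with the graft and lenalidomide on day 14, and BM was harvested on day 28. Each group was 1 library of sorted cells from 5 pooled mice, and the sources used here do not say which library number had which treatment. Libraries 1 to 4 were therefore used as 4 unlabelled libraries, no treatment was compared, and the range over libraries is the only measure of spread. A recipient can hold T cells of the graft and T cells made after SCT, and the labels do not separate these.

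Naive CD8+ T cells have left the thymus and have not yet met their antigen. They circulate between blood and lymph nodes through homing receptors such as CCR7 and the lipid receptor S1PR1, and they persist on IL-7 and on contact with self peptide on MHC class I. Transcription factors such as TCF-1 (Tcf7), LEF-1 and SATB1 mark this state, and each naive cell usually carries a TCR that few or no other cells carry.

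The receptors of the Tn cells are shown first because their sequence did not come from the gene counts that named the cells, although the V gene transcripts do. A TCR was called in 1147 Tn cells, 85.5% (95% interval 83.5 to 87.3). These cells held 1140 clonotypes, a clonotype being a set of TRA and TRB CDR3 nucleotide sequences, and 1133 of them were found in a single Tn cell. The following are the TRA sequences found in Tn cells of 3 libraries, the chain pairing known from MAIT cells, and the TRB chains of 4 of the 7 clonotypes that held 2 Tn cells. Letters run 5′ to 3′ from the CDR3 start. Capitals mark bases outside the start shared by most CDR3s of that V gene and the end shared by most CDR3s of that J gene. Random joining of segments puts its bases there, and in TRB chains the capitals also include bases of the D segment. V or J bases that most chains of a segment have lost can be capitals too, so capitals do not count joining bases alone.
TRAV14D-2 TRAJ22: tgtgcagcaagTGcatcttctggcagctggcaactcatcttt
TRAV7-5 TRAJ47: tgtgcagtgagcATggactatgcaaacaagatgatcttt
TRAV1 TRAJ33: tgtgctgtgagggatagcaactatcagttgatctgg
TRBV17 TRBJ2-7: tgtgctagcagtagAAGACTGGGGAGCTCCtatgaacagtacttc
TRBV16 TRBJ2-5: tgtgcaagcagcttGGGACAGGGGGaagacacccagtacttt
TRBV2 TRBJ2-1: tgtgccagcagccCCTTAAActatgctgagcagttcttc
TRBV12-1 TRBJ2-4: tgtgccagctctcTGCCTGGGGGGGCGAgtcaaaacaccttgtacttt

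The TRA sequences that recurred between libraries had, on average, fewer capital bases. Of 875 TRA sequences in Tn cells, 5 were found in 2 libraries and 2 in 3 libraries, with a mean of 1.86 capital bases against 4.06 in those of a single library. The TRAV14D-2 TRAJ22 sequence was carried by 4 Tn cells of libraries 1, 2 and 4, in which the V segment was called as TRAV14D-1, TRAV14D-2 or TRAV14N-3, and the TRAV7-5 TRAJ47 sequence by 3 Tn cells of libraries 1, 3 and 4. None of the 1041 TRB sequences of Tn cells was found in Tn cells of more than 1 library. The TRB chains of Tn clonotypes carried a mean of 11.5 capital bases, those of the D segment included. The TRAV1 TRAJ33 pairing was found in 2 of 896 TRA chains of Tn cells, in libraries 1 and 3, with the same CDR3 sequence and no capital base. The TRAV11 TRAJ18 pairing known from NKT cells was found in 0 of these 896 chains, which allows a share of up to 0.335%.

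Few Tn cells had a sister cell within the cluster. Clonotypes with more than 1 Tn cell held 14 Tn cells, 1.22% (0.669 to 2.04) of those with a TCR, and none held more than 2. By library this share was 0.806%, 2.67%, 0% and 1.23%, where the 0 was 0 of 273 cells, and without library 2 it was 0.708% over the other libraries. The same share was 7.19% in Tcm, the central memory cluster, 15.1% in GzmB+ Teff, 68.8% in the transitory Teff cluster and 85.9% in the TIM-3+ Tex cluster. The Tn range over libraries overlapped neither that of transitory Teff, 60.5% to 72.5%, nor that of GzmB+ Teff, 11.1% to 16.5%. The highest Tn library, with 2.67%, lay just below the lowest Tcm library, with 2.78%, and both were library 2. The square root of the unbiased Simpson index is 1 when all cells share a clonotype. Over all libraries together it was 0.00326 in Tn cells, 0.00595 in Tcm and 0.106 in transitory Teff. By library it was 0.00571, 0.00944, 0 and 0.00614 in Tn. In Tcm it was 0.0104, 0.00803, 0.0100 and 0.0112, so library 2 went the other way. The share of cells in repeated clonotypes also depends on how many cells were sampled. The cells with a TCR, 1147 in Tn and 2700 in Tcm, were not equalized. It also depends on the clonotype definition, since a missed TRA chain can part sister cells. By TRB CDR3 alone 3.95% of Tn cells were in repeated clonotypes, above the interval given, and the other clusters were not counted that way.

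A small number of Tn cells belonged to clonotypes that were large elsewhere. Within their own library, 27 Tn clonotypes with 34 Tn cells, 2.96% of those with a TCR, had more than 1 cell over all clusters. Of the 1140 Tn clonotypes, 23 (2.02%) were also found in another cluster of the same library. Transitory Teff shared 17 clonotypes, 1.49% of the Tn clonotypes and 2.90% of the transitory Teff clonotypes. Cycling cells shared 11, GzmB+ Teff and GzmA+ Tex 9 each, TIM-3+ Tex 8, and Tcm and TIGIT+ Teff 5 each. The 5 shared with Tcm made up 0.439% of the Tn and 0.193% of the Tcm clonotypes, although Tcm held 2595 clonotypes and transitory Teff 586. The TRBV17 TRBJ2-7 chain above belonged to a clonotype of library 2 with 2 Tn cells among 48 cells in all, of which 25 were transitory Teff and 11 TIM-3+ Tex. No TRA chain was called in it. The largest clonotype with any Tn cell held 110 cells of library 2, with 1 Tn cell and 64 transitory Teff cells. It had TRAV9-1 TRAJ45 and also TRBV17 TRBJ2-7, and whether the 2 clonotypes are 1 clone with a missed TRA chain was not tested.

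Segment use of Tn clonotypes was then set beside that of Tcm, each clonotype counted once, as a description only because V and some J transcripts were also among the clustered genes. No TRBV segment of 20 with at least 1% of clonotypes had ranges over the 4 libraries that did not overlap between Tn and Tcm (percent called 0.0%), against 3 of 12 TRBJ segments (25%), 5 of 43 TRAV segments (11.6%) and 3 of 39 TRAJ segments (7.69%). Differences of 1 sign in all 4 libraries were found for 2 TRBV (10.0%), 6 TRBJ (50%), 11 TRAV (25.6%) and 10 TRAJ (25.6%) segments. The largest TRBV difference was that of TRBV12-2, with 8.70% of Tn and 14.5% of Tcm clonotypes. It was lower in Tn in each library, though the ranges overlapped. Chains called as TRBV12-2 and TRBV13-2 together made up 9.84% and 8.45%. TRBJ1-1 made up 12.8%, 12.9%, 14.0% and 13.3% of Tn clonotypes in libraries 1 to 4. In Tcm it made up 8.58%, 8.63%, 8.65% and 8.33%, so that all 4 Tn libraries lay above all 4 Tcm libraries. Transitory Teff had 14.8%, above the Tn share of 13.2% over all libraries. TRBJ1-2 made up 6.72% of Tn and 4.37% of Tcm clonotypes, and TRBJ2-2 went the other way with 4.64% and 7.21%. The TRBJ1 segments together made up 36.5% (33.6 to 39.5) in Tn and 28.9% in Tcm. For both TRBJ groups (2 of 2, 100%) the ranges were apart, since they add up to the whole.

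The TRA segment with the largest difference of the same sign in every library was TRAV12D-3. It made up 5.35%, 4.70%, 6.02% and 5.51% of Tn clonotypes and 1.84%, 1.22%, 0.813% and 2.27% of Tcm clonotypes in libraries 1 to 4. Several TRAV segments have nearly identical copies, so this call is uncertain between them. TRAJ23 was also more frequent in Tn clonotypes, 5.72% against 3.26%, as was TRAJ15, 3.03% against 1.58%. TRAJ56 was less frequent, 1.23% against 3.31%, and so were TRAV19, TRAV13N-4, TRAV8D-2 and TRAV13-2. The mean TRB CDR3 length was 42.0 bases (SD 4.37 over 1057 clonotypes) in Tn, 42.4 in Tcm and 41.3 in transitory Teff, and the Tn library means from 41.8 to 42.3 lay just below the Tcm library means from 42.3 to 42.4. A TRA chain was missing in 11.8% of Tn cells with a TCR and in 11.5% of Tcm cells.

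**Figure D1:**
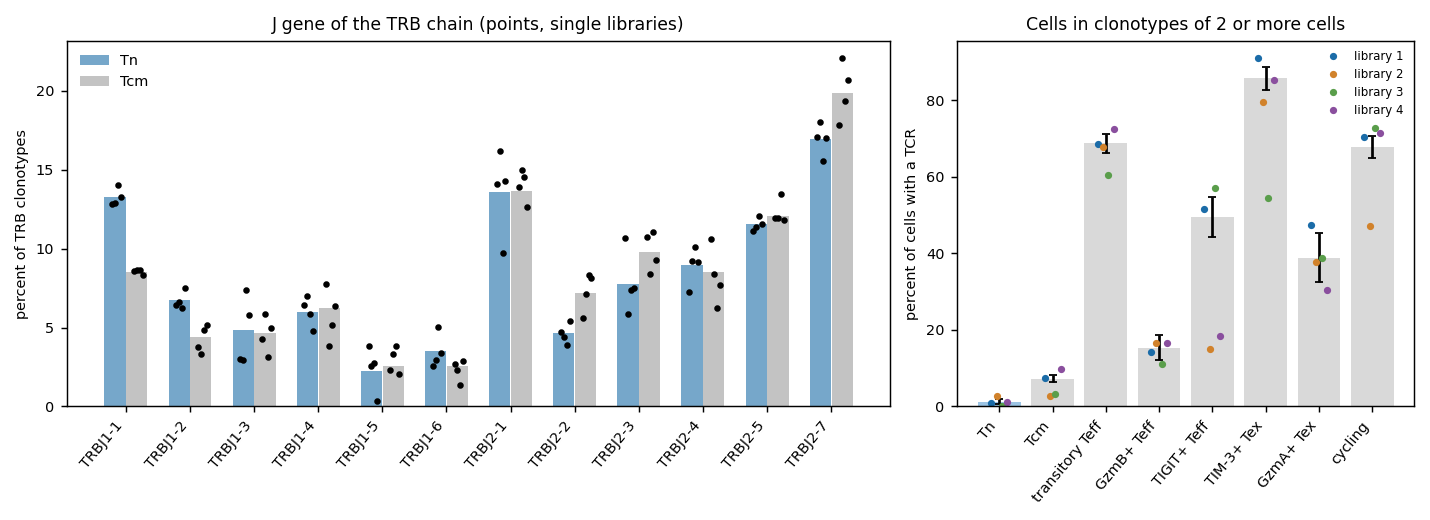
The left plot gives the percent of TRB clonotypes with each TRBJ segment in Tn and Tcm (bars, all libraries; black points, libraries 1 to 4), where the Tn points for TRBJ1-1 sit from 12.8% to 14.0% and the Tcm points from 8.33% to 8.65%. The right plot gives the percent of cells with a TCR in clonotypes of 2 or more cells of the cluster (bars with 95% exact binomial intervals; points, libraries), from 1.22% in Tn to 85.9% in TIM-3+ Tex.

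Tn cells made up 11.4% (10.8 to 12.0) of all cells. By library they were 330 of 4237 cells (7.79%), 323 of 2003 (16.1%), 305 of 1725 (17.7%) and 384 of 3789 (10.1%), so the share differed by more than counting error while the number of Tn cells was similar. A share of sorted cells moves with the number of other cells, and the 2 cannot be told apart. The Tn cells of a library held 2502699 to 3154049 UMIs, with a median of 7834 UMIs and 2238 genes per cell, beside 6958 UMIs in Tcm, 5545 in transitory Teff and 13959.5 in cycling cells. At an equal draw of 2500 UMIs per cell, the median Tn cell showed 1015 genes, the lowest of the 8 clusters. A gene at 50 UMIs in every 1000000 (CPM) used below as the minimum had 125 UMIs in the smallest Tn library, a 95% Poisson half-width of 19.2%. All intervals here cover counting error only. The deposited Leiden number of the cluster matched the name for 1322 of the 1342 Tn cells, and 132 cells named Tcm and 66 named transitory Teff carried the number of Tn. In 56 cases a cell barcode occurred in 2 libraries, which touched 15 Tn cells, and none of the 12 pairs with a TCR in both had the same TCR.

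The 4 genes given as Tn markers were high in the cluster in every library. Because the clusters were made on these counts, this describes the cluster and tests nothing. Il7r, the IL-7 receptor chain, encoded on mouse chromosome 15 (GRCm38, 9505788 to 9530176, minus strand), was at 406, 394, 470 and 324 CPM in Tn of libraries 1 to 4. In all other cells together it was at 35.0, 58.3, 65.5 and 40.2 CPM, and the groups did not overlap. Its ratio was 7.44-fold, a log2 ratio of 2.89 (2.56 to 3.21 over libraries), with 10 CPM added to both sides here and in all ratios below. Ccr7, the lymph node homing receptor (chromosome 11, 99144196 to 99155077, minus strand), was at 228, 245, 238 and 199 CPM against 19.1, 29.5, 24.2 and 21.6 in the other cells. Dapl1, a gene with high expression in naive and early memory T cells (chromosome 2, 59484653 to 59505020, plus strand), was at 241, 222, 214 and 234 CPM against 21.4, 25.9, 27.0 and 28.7. Lef1, the transcription factor LEF-1 (chromosome 3, 131110471 to 131224356, plus strand), was at 202, 218, 203 and 192 CPM against 67.1, 71.3, 77.8 and 74.5. Among the other clusters the highest level of Il7r, Ccr7 and Dapl1 was in GzmB+ Teff, with 139, 63.8 and 61.0 CPM.

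In single cells the markers were sparse. After each cell was thinned to 2500 UMIs, Il7r had a UMI in 52.5% of Tn cells (74.1% with all UMIs), against 19.0% in GzmB+ Teff, the highest of the other clusters, and 2.18% in TIM-3+ Tex, the lowest, whose median depth was 8433.5 UMIs. The shares for Ccr7, Dapl1 and Lef1 were 35.8%, 30.7% and 37.6% in Tn, 11.1%, 8.47% and 18.6% in GzmB+ Teff, and 0.568%, 1.14% and 5.49% in TIM-3+ Tex. At least 1 of the 4 was found in 84.9% of Tn cells (83.1% to 88.2% by library), beside 40.4% of GzmB+ Teff cells, the highest of the other clusters, 29.3% of Tcm cells and 8.24% of TIM-3+ Tex cells. All 4 were found in 3.58% of Tn cells, in 0 of 3418 Tcm cells and in 2 of 1891 transitory Teff cells.

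**Figure D2:**
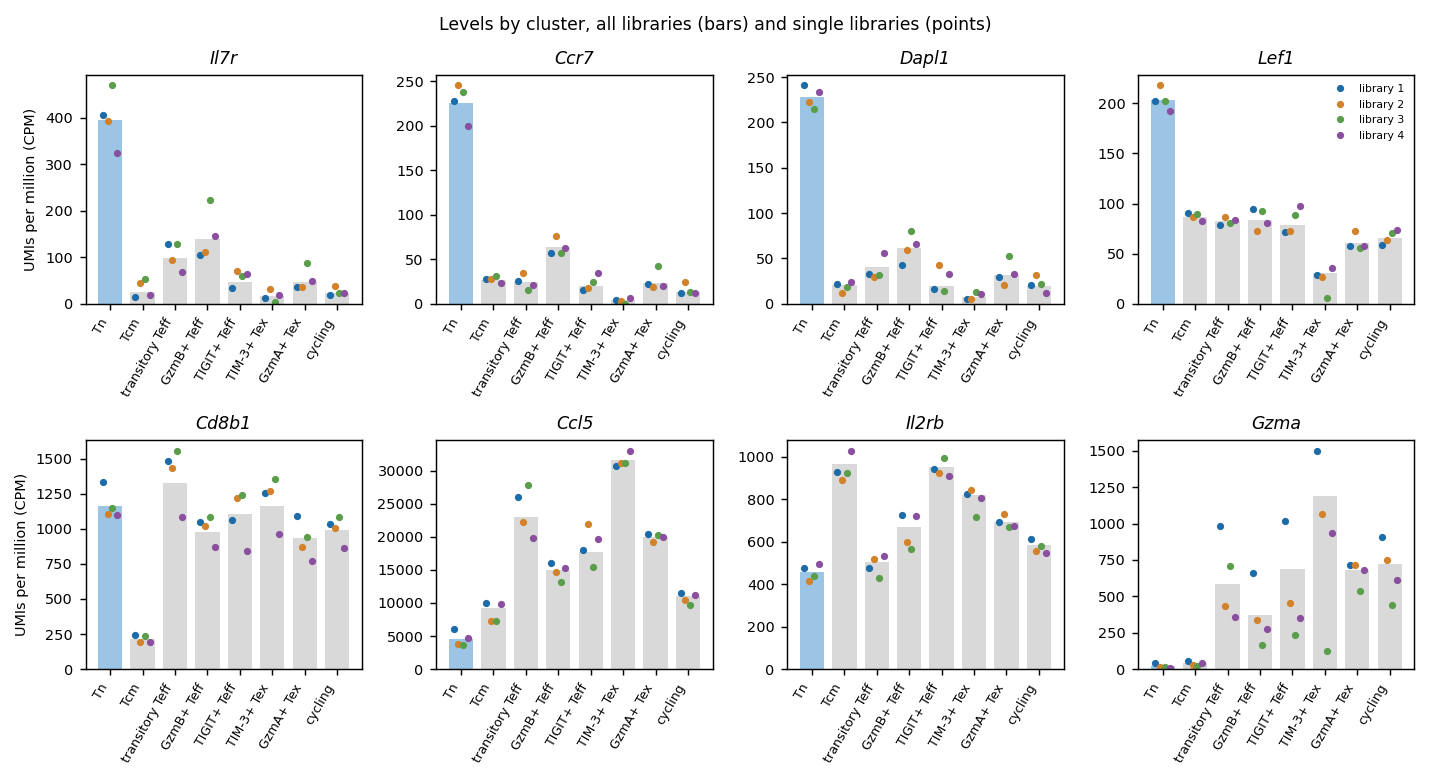
CPM of 8 genes in each of the 8 clusters, with bars for all libraries together and points for libraries 1 to 4. Il7r, Ccr7, Dapl1 and Lef1 are highest in Tn in every library, Cd8b1 is low only in Tcm, and Ccl5 is lowest in Tn but still at 3604 to 6116 CPM.

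Tn was first compared with all other cells. A gene was called when it differed by at least 2-fold the same way in each of the 4 libraries, among 2933 genes that reached 50 CPM in either group. Genes low in Tn could reach this level only through the other cells, which favours counts of lower genes here and in the lists below. The rule called 17 genes higher (0.58% of the genes) and 119 lower (4.06%) in Tn, 4.64% either way. The median log2 ratio over these genes was -0.26, and it was 0.01 when ribosomal protein, mitochondrial and TCR genes were left out of the totals, so the ratios are read against these medians. With those totals 33 genes were higher and 127 lower, and with each cell thinned to 2500 UMIs 11 were higher and 99 lower. Against Tcm the same medians were -0.10 and 0.02. The 17 higher genes were Il7r, Ccr7, Dapl1, Il6ra, Igfbp4, Fcgrt, Satb1, Nsg2, Pik3ip1, Rgs10, Lef1, Lcn4, Gzmm, Tsc22d3, Klk8, Sh3bp5 and Cmah, and each was highest in Tn of the 8 clusters. Il6ra, the IL-6 receptor, was at 55.1, 51.1, 54.0 and 47.2 CPM in Tn and at 2.70 to 5.28 CPM in the other cells. Igfbp4, a secreted protein that binds insulin-like growth factors, was at 39.9, 44.4, 85.3 and 34.2 CPM against 1.90 to 9.48. Satb1, a chromatin organizer of T cells, was at 247, 229, 260 and 199 CPM against 66.0 to 80.0.

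Of 20 naive and quiescence transcription factors 15 were compared, of which 2 were called higher, where 0.58% of all genes were, and 0 lower, with a median log2 ratio of 0.39 over the 20 (medians of lists here are over all listed members in the table). Tn was the highest of the 8 clusters for 8 of the 20. Tcf7, at 221, 249, 229 and 192 CPM against 93.9 to 115 CPM, had a log2 ratio of 1.03 (0.69 to 1.20) and missed the rule in some libraries. Foxp1, a factor that holds T cells quiescent, had 0.66 and Klf2, which drives S1pr1, had 0.81. Of 9 genes for lymph node homing and egress 8 were compared, and only Ccr7 was called, while S1pr1 had 1.15 (0.91 to 1.51). The quiescence and survival list had 3 of 16 compared genes called higher, Pik3ip1, which restrains PI3K, Rgs10 and the glucocorticoid-induced Tsc22d3. Bcl2, the survival factor downstream of IL-7, was at 400 to 438 CPM, with a log2 ratio of 0.65 (0.46 to 0.93).

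Most effector genes were lower in Tn. Of 15 compared cytotoxic and effector molecules 10 were called lower and 1 higher, with a median log2 ratio of -1.58 over the 16 listed, and Tn was the lowest of the 8 clusters for 12 of the 16. Ccl3, a chemokine of activated T cells, was at 25, 20.4, 14.9 and 6.66 CPM against 471 to 825 CPM in the other cells, 25.5-fold lower. Gzma, the protease granzyme A, was at 39.1, 12.4, 13.4 and 10.1 CPM against 318 to 774, 19.6-fold lower. Both Ccl3 and Gzma reached the minimum level only through the other cells. Library 1 had the highest Gzma level both in Tn and in the other cells, and the part of free RNA in these few UMIs was not tested. Gzmm, encoding granzyme M, was the member that was higher, at 194, 153, 173 and 172 CPM against 58.0 to 70.4.

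Of 11 inhibitory receptor genes listed, 5 were compared and called lower in Tn, but members such as Pdcd1 reached the minimum level only through the other cells, which favours such a count. Over all 11, Tn was the lowest of the 8 clusters for 7, and 1 had a log2 ratio above 0 against all other cells. Pdcd1, encoding PD-1, was at 5.86, 9.59, 6.70 and 8.56 CPM against 159 to 258 CPM, with a log2 ratio of -3.69 (-4.08 to -3.34). Tcm had nearly the same level, 8.66 CPM, and against Tcm 4 of the 11 genes had ratios above 0. Tigit, the target of the antibody, was at 16.4, 17.6, 11.2 and 16.2 CPM, with -3.35 (-3.43 to -3.05), and Lag3 had -3.72. Their levels in Tcm were 39.5 and 17.3 CPM, beside 15.3 and 11.3 CPM in Tn over all libraries. Of 10 compared effector and memory transcription factors 6 were called lower, among them Tox (-2.45), Nr4a2 (-2.60) and Bhlhe40 (-1.96). Tn had the lowest level of the 8 clusters for 16 of all 18 listed. Eomes (-0.77) and Tbx21 (-0.29), the T-box factors of memory and effector cells, were not called.

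Cell cycle genes were lower in Tn than in the other cells as a group. Of 16 compared genes 11 were called lower than in all other cells, with Mki67, a marker of dividing cells, at 4.12 to 9.38 CPM. Members such as Mki67 reached the minimum level only through the other cells, which favours such a count. Over all 17 listed the median log2 ratio was -2.19, with 0 above 0, and Tn was the lowest of the 8 clusters for 10. Against Tcm 0 of 5 compared cell cycle genes were called, with a median log2 ratio of -0.04. The interferon response list had 2 of 17 compared genes called lower and 0 higher, Isg15 (-2.22) and Ifi27l2a (-1.15). Members of glycolysis, 0 of 11 called with a median of -0.32, and of the list of lenalidomide targets, 0 of 4 called with a median of -0.29, lay close to the median of all genes. Crbn itself was at 33.2, 29.6, 32.4 and 31.4 CPM in Tn, below the minimum level. Its UMIs were counted against the mouse genome. The paper describes the CRBN of the transgenic mice as a modified murine form, and UMIs of the modified and normal forms were not told apart here.

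The remaining lists are given beside the 0.58% of all genes called higher and the 4.06% called lower. Of 15 compared cytokine receptor genes 2 were called higher, Il7r and Il6ra, and 2 lower, Il10ra, the IL-10 receptor chain, and the TNF receptor gene Tnfrsf1b. Of 8 compared genes for homing to inflamed tissue, the integrin gene Itga4 and the chemokine receptor gene Cxcr6 were called lower. The costimulatory gene Tnfrsf9, encoding 4-1BB, was the 1 call among 8 compared members, and Nr4a2 the 1 call among 11 compared genes of TCR activation. None of 20 genes of the TCR complex and its proximal signalling was called, nor any of 4 compared genes of mature naive cells or of 12 compared genes encoded by mitochondria.

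Transcripts of cytosolic ribosomal proteins took a larger share of the UMIs in Tn than in the other clusters. Their 78 genes summed to 381569, 410578, 413160 and 391073 CPM in the 4 libraries of Tn. Over all libraries the sum was 398763 CPM in Tn, 338338 in Tcm, 281331 in transitory Teff and 213514 in cycling cells. Tn was the highest of the 8 clusters for 77 of the 78 genes, the median log2 ratio against all other cells was 0.54, and 0 of 78 were called.

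Tcm had the second highest level of Tcf7, and against it 15 genes were called higher in Tn (0.574% of 2611) and 47 lower (1.8%), 2.37% either way. The leading higher genes were largely those named above, Il7r, Dapl1, Ccr7, Igfbp4, Il6ra and Fcgrt, which encodes the neonatal Fc receptor, followed by Cd8b1, Inpp4b, S1pr1 and Actn1. Igfbp4 was at 0 to 0.332 CPM in the Tcm libraries, beside 34.2 to 85.3 CPM in Tn. Tcf7 was not called, with a log2 ratio of 0.45 (0.28 to 0.60), whereas Klf2 had 1.32 (1.13 to 1.65) and S1pr1 1.60 (1.38 to 1.79).

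Cd8b1 (chromosome 6, 71322788 to 71337494, plus strand), encoding the β chain of the CD8 coreceptor, was the sharpest difference at a high level. It was at 1331, 1102, 1146 and 1098 CPM in Tn and at 242, 196, 237 and 196 CPM in Tcm, 5.19-fold higher in Tn. Its level in Tn lay within the range of the 6 remaining clusters, 934 to 1327 CPM, so Tcm was the cluster that stood apart. Cd8a, encoding the α chain, was at 343 to 446 CPM in Tn and had a log2 ratio against Tcm of 0.22 (0.16 to 0.41).

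The genes lower in Tn than in Tcm were led by NK cell receptors and their adaptors. Fcer1g, a signalling adaptor of Fc and NK receptors, was at 4.69, 12.4, 11.9 and 15.2 CPM in Tn and at 229 to 315 CPM in Tcm, 12.8-fold lower. Klrb1c, which encodes NK1.1, had a log2 ratio of -3.62, Klra7, a Ly49 receptor, -3.25, Tyrobp, encoding the adaptor DAP12, -3.16, Klrk1, encoding NKG2D, -2.78, and Klre1 -2.64. The chemokine gene Xcl1 had -2.58, Cym -2.53, Cd160 -2.50 and the protease inhibitor gene Serpina3g -2.42. The 7 NK cell markers listed summed to 70.8 CPM in Tn (60.7 to 84.7 by library), 653 in Tcm and 154 in transitory Teff, and the NK-restricted Ncr1 had 0 UMIs in Tn and 4.92 CPM in Tcm.

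Of the memory and virtual memory list, 21 members were compared with Tcm, of which 6 were called lower in Tn, 1, Vim, higher and 14 neither way. Over all 23 listed the median log2 ratio was -0.56, with 6 above 0. Il2rb, the IL-2 and IL-15 receptor β chain (chromosome 15, 78479256 to 78495271, minus strand), was at 476, 416, 439 and 494 CPM in Tn and at 890 to 1029 CPM in Tcm. It was 2.08-fold lower over all libraries and missed the rule in single libraries (log2 ratios from -1.08 to -0.95). Ly6c2, encoding Ly6C, was at 1868, 1570, 1735 and 1744 CPM, with 0.23 against Tcm. Cd44, the surface marker of antigen-experienced cells, was at 43.6 to 61.4 CPM, with -0.53 (-0.71 to -0.29).

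**Figure D3:**
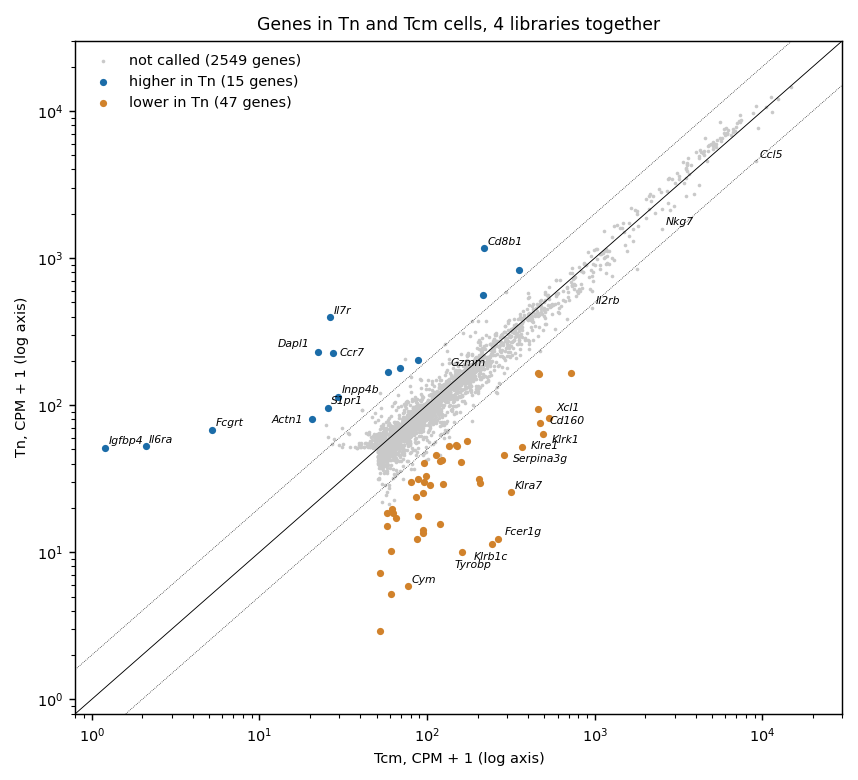
CPM plus 1 of 2611 genes in Tn (vertical, log axis) and Tcm (horizontal, log axis), all libraries together, with the 15 genes called higher in Tn in blue, the 47 called lower in orange and dotted lines at 2-fold. Cd8b1 and Il7r lie far above the diagonal, Fcer1g and Klra7 far below, and Gzmm close to it.

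Against transitory Teff, 15 genes were called higher in Tn (0.54% of 2779) and 75 lower (2.7%), 3.24% either way. Without ribosomal protein, mitochondrial and TCR genes in the totals the counts were 36 higher and 70 lower. Satb1 had a log2 ratio of 2.23 (1.98 to 2.41) over transitory Teff, and Myc 1.14. Klf2 had -0.05 (-0.13 to 0.14) and Cd8b1 -0.19 (-0.44 to 0.02), and neither was called there, although both were called against Tcm. Gzma had -4.40, Ccl3 -4.05 and Pdcd1 -3.91. The homing integrin gene Itga4 was at 66.3 to 129 CPM in Tn and 554 in transitory Teff, a log2 ratio of -2.58.

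Markers of other cell types were checked in the Tn cells. The 15 myeloid markers summed to 30.5 CPM (25.2 to 38.7 by library), of which Fcer1g and Tyrobp made up most, Lyz2 was at 0.367 CPM and Elane, Mpo and Ctsg had 0 UMIs. The 7 erythroid and megakaryocyte markers summed to 7.61 CPM. The 12 B and plasma cell markers summed to 144 CPM, mostly Ighm at 121 CPM, with Cd79a and Ms4a1 at 0 UMIs, and Ighm was at 135 CPM in Tcm. Of 12 genes of recent thymic emigrants 5, Rag1, Rag2, Ptcra, Plxnd1 and Cd4, had 0 UMIs in Tn, which allows up to 0.275 CPM. The 12 summed to 49.9 CPM in Tn, the lowest of the 8 clusters, beside 204 in Tcm and 104 in transitory Teff. Nearly all of the Tcm sum was 1 member, Ikzf2, encoding Helios, at 202 CPM there and 16.8 to 50.3 CPM by library in Tn. The order of the sums in Tn and Tcm thus rests on Ikzf2 and says little of the other members. Ikzf2 was the 1 member compared, and it was called lower in Tn against all other cells and against Tcm. Tn was the lowest of the 8 clusters for 6 of the 12 and the highest for 3. Sox4, a thymic gene that recent emigrants retain, was at 7.98 CPM in Tn, 8.0 in transitory Teff and 0.390 in Tcm. Markers of CD4, regulatory and unconventional T cells summed to 26.3 CPM over the 9 in the table, with Zbtb16, the factor of innate-like T cells, at 0 UMIs.

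Several genes of memory and cytotoxic cells were detected in most Tn cells, which went against the name, while others were found in a minority. Ccl5, a chemokine that memory CD8+ T cells keep as message and naive ones are known to lack (chromosome 11, 83525778 to 83530518, minus strand), was at 6116, 3760, 3604 and 4737 CPM in Tn. That was the lowest level of the 8 clusters, 2.02-fold below Tcm and 3.44-fold below all other cells, yet it made Ccl5 more abundant than any of the 4 markers. At 2500 UMIs per cell 89.1% (87.3 to 90.7) of Tn cells held a Ccl5 UMI (94.6% with all UMIs), beside 99.7% in Tcm. No cluster here lacks Ccl5, so no background share can be read from one. The share for Nkg7, encoding a protein of cytotoxic granules, was 95.2% in Tn (99.2% in Tcm), with levels of 1683, 1546, 1532 and 1568 CPM in libraries 1 to 4, the lowest of the 8 clusters. Ly6c2 was found in 80.5% of Tn cells (71.4% in Tcm), Il2rb in 62.7% (89.4%) and the NK receptor gene Klrd1 in 51.1% (68.1%). Other such genes were found in fewer Tn cells, Cxcr3 in 32.0% (49.7% in Tcm) and Eomes in 21.8% (31.5%). Cd44 was found in 11.7% (18.9%) and Gzmb in 8.64% (17.5%). Gzma was found in 3.65% of Tn cells and Pdcd1 in 2.61%, low shares that Tcm also had, with 6.06% and 1.20%, beside 35.2% and 68.5% in TIM-3+ Tex. The ratio of Ccl5 to Gzma UMIs in Tn was 156, 304, 269 and 467 in libraries 1 to 4, and in all other cells 21.4, 32.0, 42.0 and 39.5, so the 2 genes were not in the proportion of the other cells. Ccl5 per Ccl4 UMI was 55.0 to 124 in Tn and 13.8 to 16.6 in the other cells. In Tcm the ratio of Ccl5 to Gzma was 171 to 292, which the Tn range overlapped.

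Tn cells spread widely in Ccl5, and ranges of its UMIs among the 2500 drawn were therefore compared, with cuts chosen after the values were seen. These are ranges and not types: 95 and 71 cells lay just below and at the cut of 2 UMIs, 67 and 65 at that of 6, and 40 and 33 at that of 15. The range of 0 to 1 UMIs held 241 cells (18.0% of Tn), 2 to 5 held 259, 6 to 14 held 412 and 15 or more held 430. In the UMIs that were not drawn, the Ccl5 level was 476, 1750, 3980 and 9080 CPM in these ranges, so the lowest was still above 0. By library the range of 0 to 1 held 33, 84, 52 and 72 cells, or 10.0%, 26.0%, 17.0% and 18.8% of Tn, and the range of 15 or more held 48.5%, 24.1%, 19.3% and 34.6%. In other clusters 0 to 1 UMIs were found in 0.819% of cells in Tcm, 5.02% in transitory Teff and 6.12% in cycling cells.

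Between the lowest and the highest range, 5 genes were called higher (0.201% of 2492) and 3 lower (0.12%) with the same rule. The counts were 8 and 5 without library 1 and 9 and 7 without library 3, and cuts of 3 and 10 UMIs left 2 genes higher. The lower genes were Id3, an inhibitor of E proteins that is high in naive cells, Igfbp4 and Izumo1r, encoding folate receptor 4. Id3 was at 168, 74.8, 38.8 and 21.2 CPM over the 4 ranges, a log2 ratio of -2.51 (-3.24 to -1.89 over libraries). Igfbp4 was at 131, 73.4, 22.5 and 21.2 CPM, with -2.18 (-2.92 to -1.07). Sox4, below the minimum level, was at 38.6, 5.57, 1.11 and 0 CPM. In libraries 1 to 4 it was at 28.8, 49.2, 27.3 and 39.7 CPM in the lowest range and had 0 UMIs in the highest, with an upper 95% bound of 1.12 CPM over all libraries.

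The 5 higher genes were Fasl, the death ligand, Serpina3g, Gzmm, and the NK receptor genes Klre1 and Klrc1. Gzmm was at 69.0, 97.5, 204 and 247 CPM over the ranges, with a log2 ratio of 1.70 (1.54 to 1.84). Fasl was at 13.0, 21.4, 44.9 and 65.4 CPM, and Klrc1, encoding NKG2A, at 37.5, 63.2, 106 and 131 CPM. Il2rb was at 307, 422, 484 and 538 CPM, with 0.79 (0.60 to 1.11), and was not called.

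The cluster markers themselves changed less. Il7r was at 373, 341, 354 and 489 CPM, Lef1 at 289, 212, 177 and 178 CPM, and Ccr7 at 312, 236, 199 and 200 CPM, with log2 ratios of 0.38, -0.67 and -0.62. Dapl1 was at 328, 329, 189 and 148 CPM, with -1.09 (-1.50 to -0.58). Satb1 and Cd8b1 had log2 ratios of 0.00 and 0.01, and Cd8b1 was at 1231 and 1236 CPM in the lowest and highest range. The level of Cd8b1 in the highest range was far from that of Tcm, 217 CPM, so these cells did not have the Tcm level of this gene. Of Tn cells with a TCR, 4 of 217, 2 of 224, 9 of 362 and 19 of 344 in the 4 ranges had a clonotype of more than 1 cell in the library, or 1.84%, 0.893%, 2.49% and 5.52% with exact intervals that overlap between the lowest (0.504 to 4.65) and the highest (3.36 to 8.49). Cells of 2 types in 1 droplet were not removed.

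**Figure D4:**
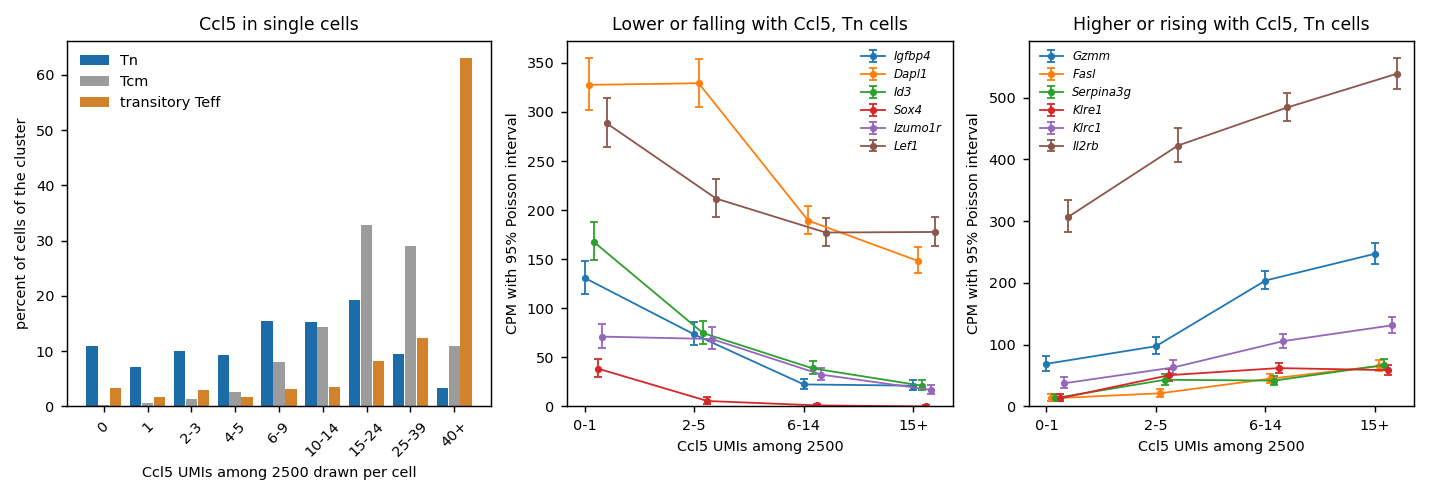
The left plot gives the percent of cells of Tn, Tcm and transitory Teff by Ccl5 UMIs among 2500 drawn, with 10.9% of Tn and 0.263% of Tcm cells at 0. The other plots give CPM with 95% Poisson intervals in Tn cells of 4 ranges of Ccl5, where Id3 goes from 168 to 21.2 CPM and Gzmm from 69.0 to 247 CPM.

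The Tn cells of the 4 libraries were alike for nearly all genes. The highest library was a median 1.17-fold over the lowest among 2565 genes, and 15 genes (0.585%) reached 2-fold with 10 CPM added, or 8 genes without library 1. In Tcm 16 of 2750 genes (0.582%) did so. Of the 15 genes, 9 also reached 2-fold between the same pair of libraries in Tcm and 5 in all other cells, and 4 were replication-dependent histone genes and 4 ribosomal protein genes. The linker histone gene Hist1h1b was at 73.1, 6.39, 78.2 and 6.66 CPM in Tn of libraries 1 to 4 and at 86.1, 8.59, 94.7 and 7.17 CPM in Tcm. The sum of 64 histone genes was 695, 270, 980 and 217 CPM in Tn and 721, 307, 1141 and 256 CPM in Tcm, so libraries 1 and 3 stood apart from 2 and 4 in both clusters. Rps28, a small subunit protein gene, was at 2867, 5369, 6186 and 4777 CPM in Tn, with library 1 lowest as in Tcm. The cause of these shifts was not tested.

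The remaining genes included some that moved less in Tcm. Igfbp4 was at 39.9, 44.4, 85.3 and 34.2 CPM in Tn, highest in library 3, and at most at 0.332 CPM in Tcm. Gzmb, the protease granzyme B, was at 73.5, 24.4, 29.0 and 52.3 CPM in Tn and at 113, 65.1, 89.7 and 149 CPM in Tcm. Ikzf2, encoding Helios, was at 16.8, 50.3, 35.0 and 21.6 CPM in Tn and at 178, 279, 270 and 178 CPM in Tcm. Libraries 1 and 4 were the higher pair for Gzmb in Tn and the lower pair for Ikzf2, and these were also the libraries with the largest share of Tn cells of 15 or more Ccl5 UMIs, whose part in the difference was not tested. Txnip, an inhibitor of glucose uptake, was at 298, 570, 351 and 260 CPM in Tn and 278, 479, 312 and 263 CPM in Tcm. The immediate early gene Fos was at 60.6, 141, 121 and 130 CPM in Tn and 99.1, 187, 189 and 196 CPM in Tcm. In both clusters Txnip was highest in library 2 and Fos lowest in library 1. With 1 library of pooled mice per treatment, treatment and library cannot be told apart.

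**Figure D5:**
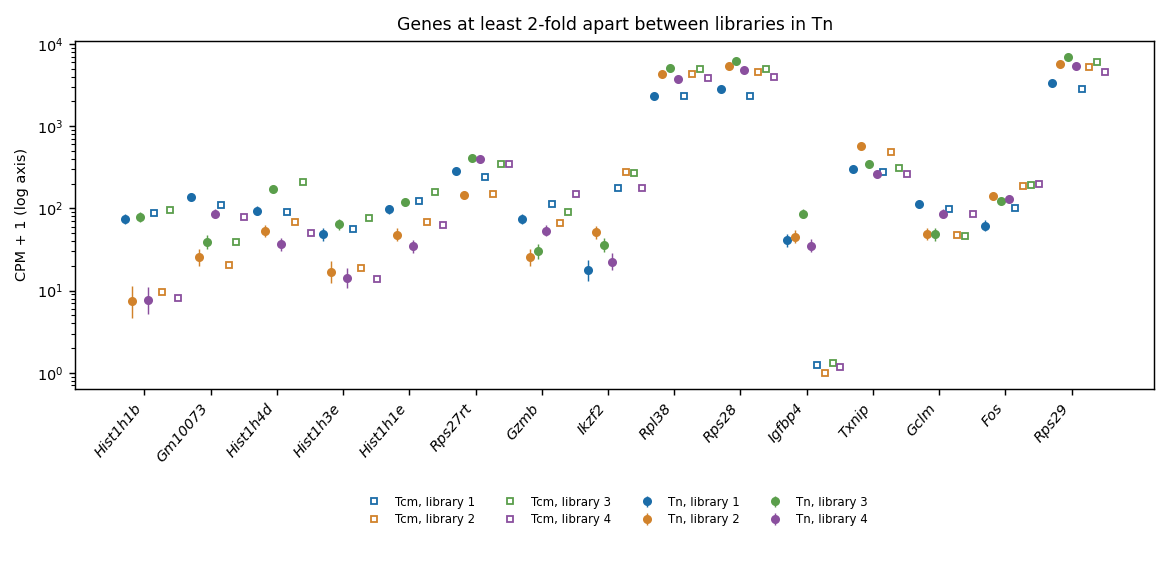
CPM plus 1 (log axis) of the 15 genes at least 2-fold apart between libraries in Tn, for libraries 1 to 4, with filled points for Tn (95% Poisson intervals) and open squares for Tcm. Histone genes such as Hist1h1b are high in libraries 1 and 3 in both clusters, while Igfbp4 is highest in library 3 in Tn and near 0 in Tcm.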

How the data were processed

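CD8+ T cells sorted from BM were profiled with the 10x Genomics 5′ platform, with TCR sequencing of the same cells. Per the submitters' processing notes and the study's methods, the authors used Cell Ranger 7.00 and mm10, equalized read depth across libraries, filtered cells by UMIs, mitochondrial share and Cd3 and Cd8a, and clustered with Monocle3. The deposited expression table gives whole-number UMI counts (17561 genes, 11754 cells) that were not normalized. The authors' cell table gives UMI counts (2502 to 24983 per cell), a mitochondrial fraction, cluster name, Leiden number and library number, and their TCR table gives the chains of 7961 cells. The members, lists and comparisons were chosen with earlier results of these data known. Symbols and coordinates are those of GENCODE M21 (GRCm38), with 17534 genes given a symbol, and TCR V and J names are the authors'.

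Counts were summed over cells of a cluster and divided by their total to CPM. Ratios were taken within libraries and over all, with 10 CPM added, and a gene needed 50 CPM in either group. No statistical test was made: cells are not replicates, each treatment is 1 library, and the clusters came from the same counts. Shares per cell used 2500 UMIs drawn per cell (seed 7). Intervals at the 95% level are Poisson for CPM and exact (Clopper-Pearson) binomial for shares, and a count of 0 was given a limit of 3 counts. Genes named are members of 24 lists with 321 different genes (2 not in the table), some of them in more than 1 list. The rule also named the 15 called genes with the highest and the 15 with the lowest ratio against all other cells. It further named 10 each way against Tcm, the 10 with the largest range over libraries, and segments and CDR3s chosen by their difference or number of cells. Genes named outside that rule were the remaining called genes, Izumo1r among them, and were chosen after their values were seen. No doublets were removed. Some items are not reported here. Alternatives changed the pseudocount, minimum level, depth, totals, cells and libraries used, and the clonotype definition. Versions were pandas 2.3.3, scipy 1.17.1, numpy 2.4.6 and, for plots, matplotlib 3.10.9 under Python 3.11.15. On simulated counts of 17561 genes, 200 genes of at least 100 CPM in the other cells were changed by 3-fold in every library. All 200 were called (100%) for Tn against all other cells, with 0 of 2652 unchanged genes called. The simulation held counting error only, so this result was nearly fixed in advance. It does not cover genes nearer the minimum level, smaller changes or changes that vary between libraries.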

Additional observations from a re-analysis of the deposited data

How the results depend on the processing

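No paired analysis was possible because, between treatments, each was 1 library and no replicate numbers pair them, while clusters were compared within their own library throughout. Without a minimum level, 222 genes were lower in Tn than in all other cells, 72 lower than in Tcm, 115 lower than in transitory Teff and 36 apart between libraries. With each cell thinned to 2500 UMIs, 11 genes were higher than in all other cells and 28 were apart between libraries. With totals free of ribosomal protein, mitochondrial and TCR genes, 33 genes were higher than in all other cells and 36 higher than in transitory Teff. The Tn share was 12.9% by Leiden number, 14.4% among cells with a TCR, and 10.3% to 13.5% with a library left out. Leaving out a library gave 8 to 13 genes apart between libraries, with 8 without library 1. By TRB CDR3 alone, 3.95% of Tn cells were in repeated clonotypes and the index was 0.00691. With all UMIs the shares of cells were 74.1% for Il7r, 69.4% for Ccr7, 47.5% for Dapl1, 73.5% for Lef1, 94.6% for Ccl5, 87.9% for Il2rb, 8.94% for Gzma and 4.55% for Pdcd1. Settings for the Ccl5 ranges and the receptor segments were chosen after seeing the data. For the genes higher in the upper Ccl5 range, cuts of 3 and 10 UMIs gave 2 and cells whose number and name agree gave 3. With a library left out there were 5 to 9 higher and 4 to 7 lower, 8 and 5 without library 1 and 9 and 7 without library 3. Of 550 ratios of 50 named genes under alternatives 0 changed sign, 437 moved within the counting error of the main ratio and 113 beyond it. The cause was not tested for any of these. Genes under 50 CPM are limited by depth, and treatments could not be compared.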

Other observations

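The cells whose Leiden number and name differ had levels of their own. Il7r was at 398 CPM in the 1322 Tn cells with matching number and name and at 160 CPM in the 20 with the name only. The 132 cells named Tcm that carried the number of Tn had 75.0 CPM of Il7r, against 22.4 CPM in Tcm cells with matching number and name. The 66 cells named transitory Teff that carried the number of Tn had 373 CPM of Il7r, against 114 CPM in transitory Teff cells with matching number and name. For Ccr7 the levels were 228 CPM in matching Tn cells, 51.6 CPM in the cells named Tcm and 126 CPM in those named transitory Teff. For Dapl1 they were 229, 53.7 and 148 CPM, and for Lef1 204, 91.6 and 174 CPM.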
